A study of Mus musculus with 9 samples.

Results

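Amino acid transporters carry amino acids across the plasma membrane or out of lysosomes, and 10 of their genes were followed here in mouse bone marrow (BM)-derived macrophages (Mϕs) given IL-4 or IL-6. The genes are Slc1a4, Slc1a5, Slc7a5, Slc7a6, Slc7a7, Slc7a8, Slc3a2, Slc38a1, Slc38a2 and Slc36a1. They were taken by gene symbol from an RNA-seq table of 53379 gene identifiers, and each symbol matched 1 identifier. The genes, and the gene lists used below, were chosen with earlier results of these data known. The table holds FPKM, the fragments of a gene scaled to exon length and to the size of the library. In the GENCODE annotation of GRCm38, Slc7a7 (chr14:54369442-54417780) and Slc7a8 (chr14:54722209-54781946) lie near each other, as do Slc38a1 (chr15:96571418-96642913) and Slc38a2 (chr15:96687392-96699730). Slc7a5 (chr8:121881150-121907694), Slc7a6 (chr8:106168857-106198706), Slc1a4 (chr11:20302180-20332713), Slc36a1 (chr11:55204350-55236330), Slc1a5 (chr7:16781340-16798274) and Slc3a2 (chr19:8706882-8723369) are the others. All 10 reached the mean of 0.5 FPKM over the 9 libraries that was required for testing, as 12824 genes did.

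Mϕs take up neutral amino acids through several families of carriers. The Slc1a4 and Slc1a5 proteins (ASCT1 and ASCT2) exchange small neutral amino acids with sodium, and Slc1a5 also carries glutamine. The Slc7 proteins are light chains that reach the cell surface bound to a heavy chain, Slc3a2 (CD98), and trade one amino acid for another, so the light chain sets which amino acids are moved. Slc38a1 and Slc38a2 (SNAT1 and SNAT2) load the cell with glutamine and other small neutral amino acids, and Slc36a1 (PAT1) exports small neutral amino acids from lysosomes with protons. When amino acids run short, the kinase GCN2 raises translation of the transcription factor ATF4, and several transporter genes are known targets of that response.

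BM cells came from 3 wild-type C57BL/6 mice, whose age is not stated, and were kept in 10 ng/ml CSF-1 (MCSF) for 3 days. They were then held for 4 more days in 10 ng/ml CSF-1 alone (control Mϕs), with 10 ng/ml IL-4 added (IL-4-treated Mϕs) or with 100 ng/ml IL-6 added (IL-6-treated Mϕs), with 3 libraries in each group. CSF-1 was thus present in every group, including the controls. These doses and times are those of the sample labels, and the study's own text also gives other ones. No sort of Mϕs before RNA extraction is described, so the libraries hold whatever cells grew in the dish. The labels do not state which library came from which mouse, so p-values measure the spread between these libraries. The column headers put an unexplained m before each replicate number, and the limma test used below did not take the numbers as pairs.

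The 9 libraries differed in ways that bear on the transporters. Total fragments, read from the steps of the FPKM values, ranged from 29988160 to 39909571. IL-4 replicate 3 stood apart by transcript length. Against the other 2 IL-4 libraries, its tested genes with the shortest exonic length (at most 2009 bases, the first of 4 equal bins) had a median log2 difference of 0.39, and those with the longest (over 6176 bases, the last bin) of -0.97. A second difference concerned 14 intestinal epithelium genes, whose summed level was 14.6 to 25.2 FPKM in the 3 control libraries and IL-4 replicate 1 but 1.35 to 2.09 FPKM in the other 5 libraries. The comparison of IL-6 with control runs wholly across this split and cannot be told apart from it. Some fits below add a term for the split in intestinal genes. With that term, IL-4 against control rests on IL-4 replicate 1, and IL-6 against IL-4 on IL-4 replicates 2 and 3. IL-6 against control is then reached only through the IL-4 libraries on both sides of the split. Mϕ identity was checked with 9 markers, all detected, and their summed level was 16744 to 19084 FPKM in control, 6040 to 7085 in IL-4-treated and 20488 to 21563 in IL-6-treated Mϕs. With IL-4, 6 of the 9 fell by the limma test used below, among them Adgre1 and Lyz2, and 4 fell with a term for the split in intestinal genes. Of 5 mast cell and basophil markers, 4 rose with IL-4 and Kit fell (2 and 0 with a term for the split in intestinal genes), and their summed level was 29.4 to 46.2 FPKM against 5.94 to 12.2 in control. By the same limma test, 8.89% of all tested genes fell with IL-4 and 5.02% rose. The part of these library and marker differences in the results below was not tested unless a value is given, and in bulk RNA fewer cells of a type and less RNA per cell cannot be told apart.

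**Figure D1:**
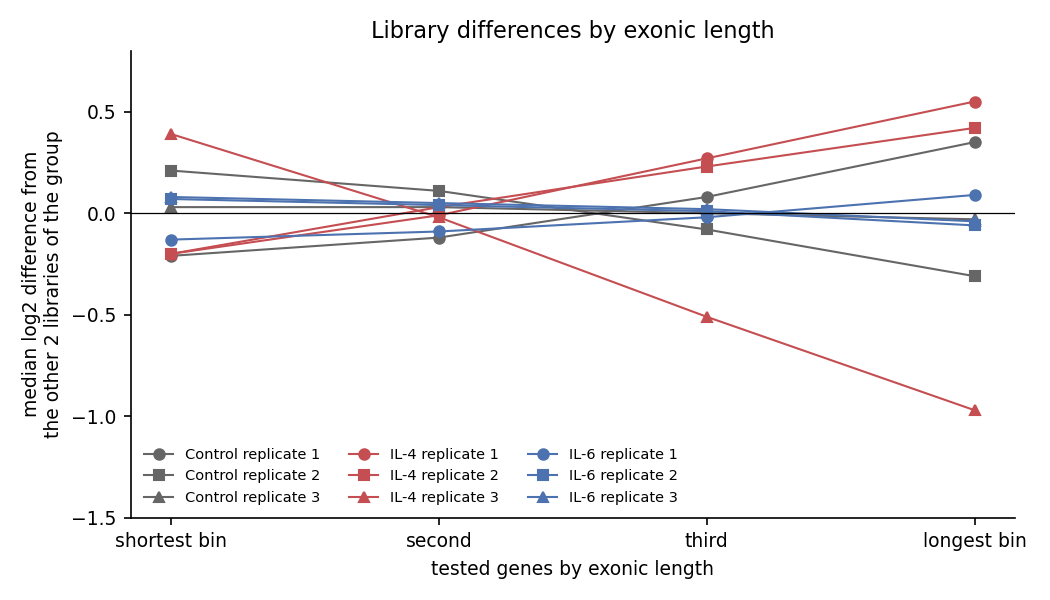
Median log2 difference of each library from the other 2 libraries of its group (vertical axis), for 12809 tested genes in 4 equal bins of exonic length (horizontal axis). Each line is 1 library, and IL-4 replicate 3 runs from 0.39 in the shortest bin to -0.97 in the longest.

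Promoter sequence was available for 7 of the 10 genes in RefSeq (build GRCm38.p6), as windows from 250 bases before to 50 bases after each annotated start site. Slc1a5, Slc7a5 and Slc38a1 have no window in the table used. Windows were searched on both strands for TGATGNAA, the amino acid response element through which ATF4 acts, for the E-box CACGTG, and for 2 spacings of the STAT motif, TTCNNNGAA and the same with 4 bases between TTC and GAA. The amino acid response element was found in Slc1a4 and Slc7a7, the E-box in Slc36a1, and neither STAT spacing in any of the 7 genes. Over all 27025 genes with a window, 4.5% held the amino acid response element, 8.1% the E-box, 9.6% the first and 8.0% the second STAT spacing. By window, over 32851 windows, the shares were 4.0%, 7.2%, 8.3% and 7.0%. The 7 genes have 12 windows, as a gene can have more than 1. The stretches are shown because they hold the matches. They are written 5′ to 3′ on the gene's strand, with the match in capitals. In Slc1a4 (chr11:20332710-20332789, minus strand) the match lies on the opposite strand from base -4 to base 3, counting the start site as 0. Slc7a7 (minus strand) has a match from base -141 (chr14:54418038-54418125) and another from base -1 (chr14:54417938-54418017). Slc36a1 (plus strand) has E-boxes from base -31 and base -3, and the stretch printed (chr11:55204260-55204339) marks the first. A match describes the letters only and is not evidence of binding.
Slc1a4: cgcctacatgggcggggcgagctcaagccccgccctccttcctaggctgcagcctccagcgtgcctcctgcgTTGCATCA
Slc7a7, upstream: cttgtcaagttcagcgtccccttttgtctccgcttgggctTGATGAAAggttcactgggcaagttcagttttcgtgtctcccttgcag
Slc7a7, start site: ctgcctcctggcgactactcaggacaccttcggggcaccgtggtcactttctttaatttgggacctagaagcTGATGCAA
Slc36a1: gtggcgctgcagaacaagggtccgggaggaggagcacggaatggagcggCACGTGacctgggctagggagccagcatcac

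In control Mϕs the heavy chain was by far the most abundant of the 10. Slc3a2 stood at 133.2 ± 12.7 FPKM (SD, n = 3), above 97.5% of tested genes, and Slc1a4 at 0.273 ± 0.0137 FPKM, above 1.4%. FPKM are per length, so these levels can be set side by side. In descending order of mean level, Slc7a8 (32.5 FPKM) and Slc36a1 (29.4) followed with overlapping ranges, then Slc7a7 (21.6), then Slc38a2 (12.2) and Slc38a1 (11.6), again overlapping, then Slc1a5 (7.60), and then Slc7a6 (2.71) and Slc7a5 (2.43), overlapping. Under IL-4 the order changed. Slc1a5 stood second at 32.6 ± 7.58 FPKM, and Slc7a7, at 3.70 ± 0.835 FPKM, lay between Slc38a1 and Slc7a6. In that group the range of each gene from Slc1a5 to Slc38a1 overlapped that of the next gene in order, while Slc3a2 did not overlap Slc1a5. Under IL-6 the order differed from control only in the places of Slc36a1, Slc7a7 and Slc7a5. Slc36a1 stood second at 36.3 FPKM, Slc7a7 between Slc38a2 and Slc38a1 with overlapping ranges, and Slc7a5 above Slc7a6.

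**Figure D2:**
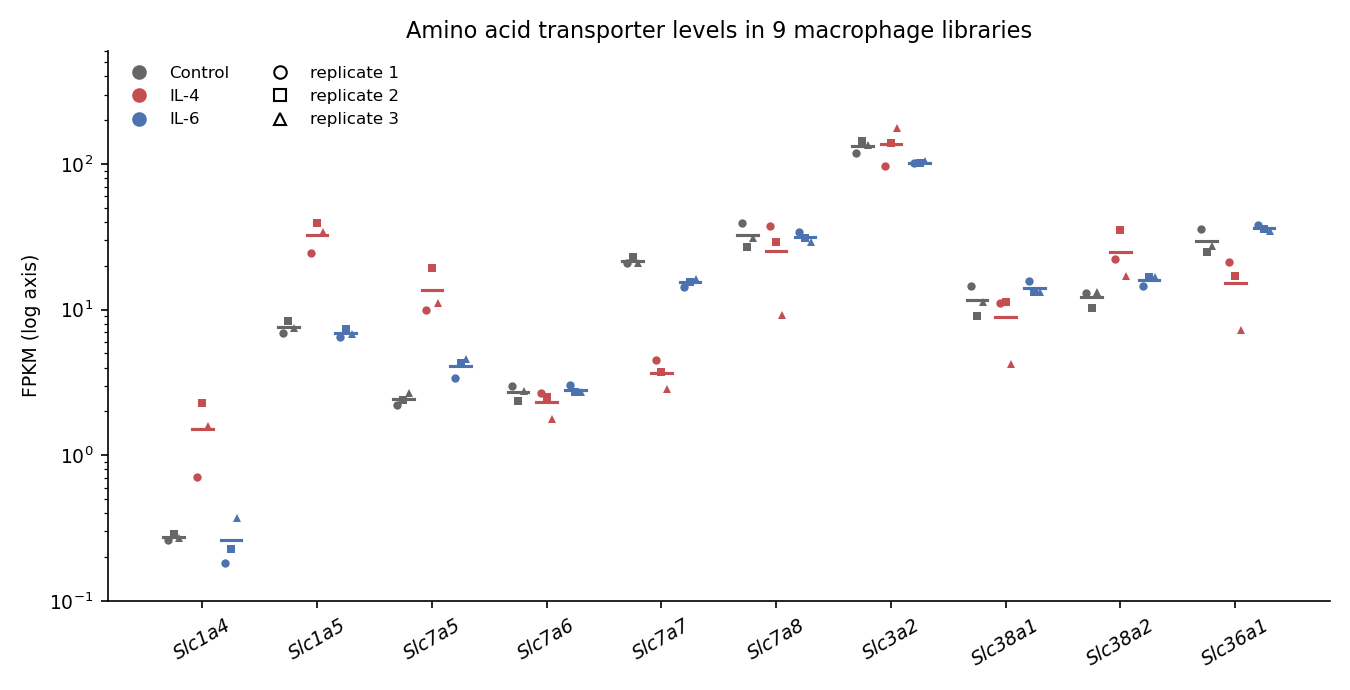
FPKM of the 10 transporter genes (vertical log axis) in each library, with symbols for replicates, colours for groups and bars for group means. The 3 IL-4 libraries lie above every other library for Slc1a4, Slc1a5, Slc7a5 and Slc38a2 and below every other library for Slc7a7 and Slc36a1.

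The effect of IL-4 on Mϕs was asked first. IL-4 raised 3 carriers of neutral amino acids, Slc1a4, Slc1a5 and Slc7a5, by between 4.30- and 5.59-fold in mean FPKM, and lowered 1, Slc7a7, by 5.84-fold. A gene counted as called where its limma adjusted p was under 0.05 and its fitted change, on the log2(FPKM + 0.1) scale, was 1 or more in size. By that rule 4 of the 10 transporters were called, against 13.9% of all 12824 tested genes. The 3 rises stand beside 5.02% of genes called higher, and the 1 fall beside 8.89% called lower. Among the rises, Slc1a4 reached the requirement for testing only through the IL-4 libraries, where it is high. Control and IL-4 libraries did not overlap for 6 of the 10, against 40.3% of all genes. The median log2 fold change was -0.11 over the 10 transporters and -0.20 over all tested genes, and the latter was -0.01 once each library was rescaled by its median ratio.

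Slc7a5 encodes LAT1, the light chain that imports leucine and other large neutral amino acids. It read 2.23, 2.38 and 2.67 FPKM in control Mϕs and 10.0, 19.4 and 11.2 FPKM in IL-4-treated Mϕs. The groups did not overlap, and IL-4 replicate 2 was the highest library. The log2 fold change was 2.38 (SE 0.251, limma adjusted p = 0.000342), which corresponds to 3.48- to 7.74-fold by the 95% interval. Within the libraries rich in intestinal genes, IL-4 replicate 1 stood 4.13-fold above the control mean. The log2 fold change with a term for that split, 2.01, rests on that same library. The gene was called with any 1 library left out.

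Slc1a5 encodes ASCT2, a main importer of glutamine, and showed the most even rise. Control libraries read 6.96, 8.30 and 7.53 FPKM and IL-4 libraries 24.4, 39.4 and 34.1 FPKM, with no overlap and, again, the lowest IL-4 value in replicate 1. The log2 fold change was 2.06 (SE 0.179, limma adjusted p = 0.000127). IL-4 replicate 1 alone was 3.22-fold above the control mean. With the term for the split the log2 fold change was 1.68, which rests on that same library.

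Slc1a4, the ASCT1 carrier of alanine, serine and cysteine, was barely detected without IL-4. Control libraries read 0.263, 0.289 and 0.269 FPKM and IL-4 libraries 0.708, 2.27 and 1.59 FPKM, from 25 to 270 fragments a library over all 9. The groups did not overlap, but the IL-4 values spread over more than a 3-fold range. The log2 fold change was 1.99 (SE 0.415, limma adjusted p = 0.00987). It is the only one of the 10 below 0.5 FPKM in both other groups, so it reached the requirement for testing through the IL-4 libraries, and without that requirement its adjusted p was 0.0171. With the term for the split the call was lost (log2 fold change 1.11, adjusted p = 0.147), and with a pseudocount of 1 the log2 fold change was 0.94.

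Slc7a7 encodes y+LAT1, the light chain that exports arginine and lysine in exchange for neutral amino acids and is known for its expression in Mϕs. Control libraries held 20.9, 23.1 and 20.8 FPKM, and IL-4 libraries 4.52, 3.73 and 2.85 FPKM. The groups were far apart and each was tight. The log2 fold change was -2.54 (SE 0.167, limma adjusted p = 2.68e-05), with a 95% interval from -2.92 to -2.15. IL-4 replicate 1 was 0.209 times the control mean. With the term for the split the log2 fold change was -2.23, which rests on that same library. The fall accompanied that of 6 of the 9 Mϕ markers given above, beside 8.89% of all tested genes called lower. The part of those markers in the fall of Slc7a7 was not tested. Exons of Slc7a7 share 232 bases, 7.0% of its exonic length, with Oxa1l on the opposite strand, and whether counting used strand is not stated.

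The other light chains did not pass the test. Slc7a8, the LAT2 carrier of neutral amino acids, read 39.4, 27.0 and 31.1 FPKM in control and 37.8, 29.0 and 9.17 FPKM in IL-4-treated Mϕs. Its low value came from IL-4 replicate 3, the library low in long transcripts, and the first 2 IL-4 libraries lay within the control range. The log2 fold change was -0.57 (95% interval -1.63 to 0.49, limma adjusted p = 0.406), and it was 0.04 without that library and 0.23 with the term for the split. Slc7a6, which encodes y+LAT2, the close relative of Slc7a7, was at 2.71 ± 0.315 FPKM in control and 2.32 ± 0.468 in IL-4-treated Mϕs (log2 fold change -0.23, 95% interval -0.65 to 0.19). The heavy chain Slc3a2 had 119.6, 144.9 and 135.0 FPKM in control and 97.2, 139.5 and 177.7 FPKM with IL-4. The IL-4 libraries surrounded the control ones, and the log2 fold change was 0.01 with a 95% interval from -0.46 to 0.49, and -0.45 with the term for the split (limma adjusted p = 0.194).

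Slc38a2, the SNAT2 importer that cells raise when amino acids run short, read 13.1, 10.2 and 13.1 FPKM in control and 22.5, 35.1 and 17.2 FPKM with IL-4. The groups did not overlap and the mean was 2.05-fold higher, but the log2 fold change of 0.97 (limma adjusted p = 0.0221) lay just under the size required. It was past that size after median-ratio rescaling (1.17, adjusted p = 0.00343) and without IL-4 replicate 3 (1.21). With the term for the split it was 0.89 (adjusted p = 0.190), in the fit of the 2 groups alone the adjusted p was 0.0745, and without IL-4 replicate 2 the log2 fold change was 0.70. Slc38a1, the SNAT1 importer, had 14.6, 8.98 and 11.2 FPKM in control and 11.0, 11.3 and 4.27 FPKM with IL-4, where again replicate 3 was the low value (log2 fold change -0.48, 95% interval -1.32 to 0.36). Slc36a1, the lysosomal exporter, read 36.1, 25 and 27.3 FPKM in control and 21.3, 17.1 and 7.24 FPKM with IL-4. Its groups did not overlap, and the log2 fold change was -1.07 (95% interval -1.89 to -0.24) with a limma adjusted p of 0.0645. With the replicate number as a block the adjusted p was 0.0488, and without IL-4 replicate 1 it was 0.0239. It was 0.155 in the fit of the 2 groups alone and 0.194 without control replicate 1, and with the term for the split the log2 fold change was -0.45 (adjusted p = 0.641).

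Centring each library within bins of transcript length, chosen after the length difference had been seen, kept the 4 calls under IL-4 and added Slc38a2 (log2 fold change 1.33, limma adjusted p = 0.00112). Under that centring the log2 fold changes moved towards 0 for Slc7a8 (-0.31), Slc38a1 (-0.06) and Slc36a1 (-0.79). Median-ratio rescaling, which uses no length, gave -0.37, -0.29 and -0.87. By annotated length, Slc38a1 (17236 bases) and Slc38a2 (8838) are over the 6176 bases of the longest bin given above, and the change of Slc38a2 moved away from 0. Slc7a8 (5005) and Slc36a1 (5626) are under that length. In IL-4 replicate 3 the bin next below the longest also had a negative median log2 difference (-0.51). The annotated lengths of Slc38a1 and Slc38a2 may differ from those behind their FPKM. The part of length in these changes was not tested.

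**Figure D3:**
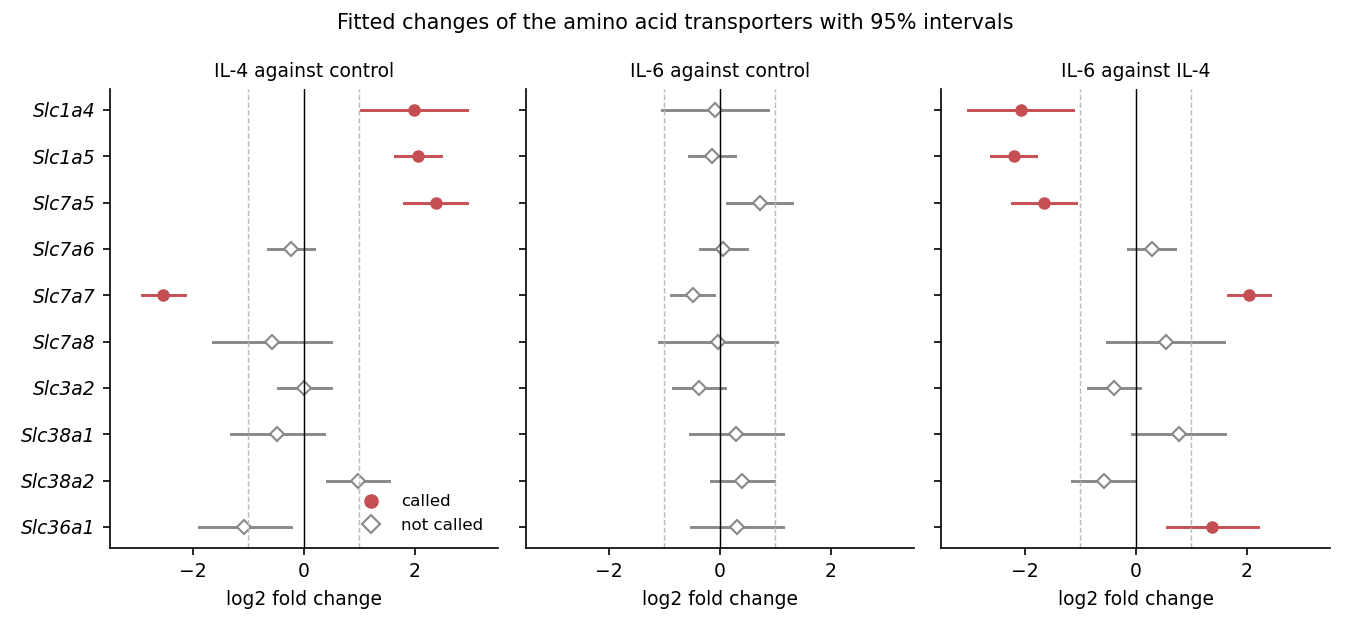
Fitted log2 fold changes of log2(FPKM + 0.1) with 95% intervals (horizontal axis) for the 10 genes in the 3 comparisons, with filled red circles for called genes and open diamonds for the rest. Dashed lines mark -1 and 1, and the panels hold 4, 0 and 5 called genes.

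IL-6 was compared with control next. No transporter passed the test with IL-6, whereas 5.38% of all tested genes were called (3.49% higher and 1.89% lower). At an unadjusted limma p under 0.05 there were 2 of the 10, Slc7a5 and Slc7a7, beside 21.3% of all genes, and limma voom on recovered fragments called 0 of the 8 genes it could cover. IL-6 and control libraries did not overlap for 4 of the 10, Slc3a2, Slc7a5, Slc7a7 and Slc38a2, against 43.2% of all genes.

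Slc7a5 read 3.4, 4.27 and 4.58 FPKM with IL-6, above all 3 control libraries, and the ratio of means was 1.68. The log2 fold change was 0.72 (95% interval 0.14 to 1.30, limma adjusted p = 0.138). Slc7a7 read 14.4, 15.6 and 16.2 FPKM with IL-6, below all 3 control libraries, with a log2 fold change of -0.49 (95% interval -0.87 to -0.10, adjusted p = 0.131). For both genes the IL-6 value lay on the same side of control as the IL-4 value, at a smaller distance, and both comparisons share the control libraries. Slc3a2 was at 101.0, 101.4 and 104.3 FPKM, a narrow range under the lowest control library, with a log2 fold change of -0.38 (95% interval -0.85 to 0.10). Slc38a2 was at 14.5, 16.9 and 16.7 FPKM (log2 fold change 0.40, 95% interval -0.16 to 0.97). A fit on the control and IL-6 libraries alone, whose spread does not include the IL-4 libraries, gave limma adjusted p-values of 0.0156 for Slc7a5, 0.00863 for Slc7a7 and 0.0291 for Slc3a2, with each log2 fold change still under 1 in size. With the term for the split in intestinal genes, the log2 fold changes were 0.17 for Slc7a5, -0.03 for Slc7a7, -1.07 for Slc3a2 and 0.27 for Slc38a2. As given above, IL-6 against control is then reached only through the IL-4 libraries.

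The remaining 6 genes overlapped between IL-6 and control. Slc1a5 read 6.51, 7.36 and 6.86 FPKM with IL-6, and its 95% interval ran from 0.685- to 1.21-fold. Slc1a4 read 0.183, 0.226 and 0.373 FPKM, with a wide interval from 0.487- to 1.83-fold. Slc7a8 (34.1, 31.0 and 29.4 FPKM) and Slc7a6 (3.06, 2.71 and 2.71 FPKM) had log2 fold changes of -0.03 and 0.06. Slc38a1 (15.7, 13.2 and 13.2 FPKM) and Slc36a1 (38.1, 35.8 and 34.9 FPKM) had log2 fold changes of 0.30 and 0.32, with intervals that include 0.

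IL-6- and IL-4-treated Mϕs were then set against each other. This comparison called 5 transporters, against 20.4% of all tested genes, and the 8 whose libraries did not overlap stand beside 56.9% of all genes. Relative to IL-4, IL-6-treated Mϕs had lower Slc1a4, Slc1a5 and Slc7a5 (6.82% of all genes were called lower) and higher Slc7a7 and Slc36a1 (13.6% were called higher). Here too, Slc1a4 is counted although it entered testing only through the IL-4 libraries. Slc7a7 was 4.15-fold higher with IL-6 (log2 fold change 2.05, limma adjusted p = 5.18e-05). Slc1a5 was 4.73-fold lower (-2.2, adjusted p = 5.39e-05), Slc7a5 3.32-fold lower (-1.65, adjusted p = 0.0016) and Slc1a4 5.84-fold lower (-2.07, adjusted p = 0.00614). These comparisons could also be made among the libraries poor in intestinal genes. There the ratio of IL-6 to the 2 IL-4 libraries was 4.67 for Slc7a7, 0.188 for Slc1a5, 0.267 for Slc7a5 and 0.135 for Slc1a4. Slc36a1 was 2.38-fold higher with IL-6 (log2 fold change 1.38, limma adjusted p = 0.0195), but this call rested on single libraries. Without IL-4 replicate 3 its log2 fold change was 0.92, and without any 1 IL-6 library its adjusted p was between 0.0550 and 0.0640. In an exact permutation test, two-sided, all 5 reached 0.1, the smallest p that groups of 3 libraries allow.

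The light chains that share the heavy chain Slc3a2 made up a similar total in most libraries but a different mixture. Slc7a11 (xCT), the cystine importer that also binds Slc3a2, was included in this sum. The 5 light chains, Slc7a5, Slc7a6, Slc7a7, Slc7a8 and Slc7a11, summed to 56.2 to 67.9 FPKM in control, to 59.7, 60.1 and 28.0 FPKM with IL-4 and to 60.3 to 66.9 FPKM with IL-6. IL-4 replicate 3 alone was low, through Slc7a8. Slc7a7 made up 30.8% to 41.1% of the sum in control, 6.21% to 10.2% with IL-4 and 21.5% to 26.8% with IL-6, in 3 ranges that do not overlap. Slc7a5 made up 3.28% to 4.53% in control, 16.8%, 32.3% and 40.0% with IL-4, and 5.08% to 7.60% with IL-6. Control Mϕs thus held more Slc7a7 than Slc7a5 RNA per length, at 0.103 to 0.128 of Slc7a5 to Slc7a7, and every IL-4 library held more Slc7a5, at ratios from 2.22 to 5.21. Slc7a8 remained the largest share in control (48.0% to 58.0%) and IL-6 (48.7% to 50.9%) libraries, and in IL-4 replicates 1 and 2 (63.3% and 48.2%), and was second to Slc7a5 in IL-4 replicate 3 (32.8%). Heavy chain exceeded the summed light chains in every library, by 1.51- to 2.58-fold apart from 6.35-fold in IL-4 replicate 3.

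**Figure D4:**
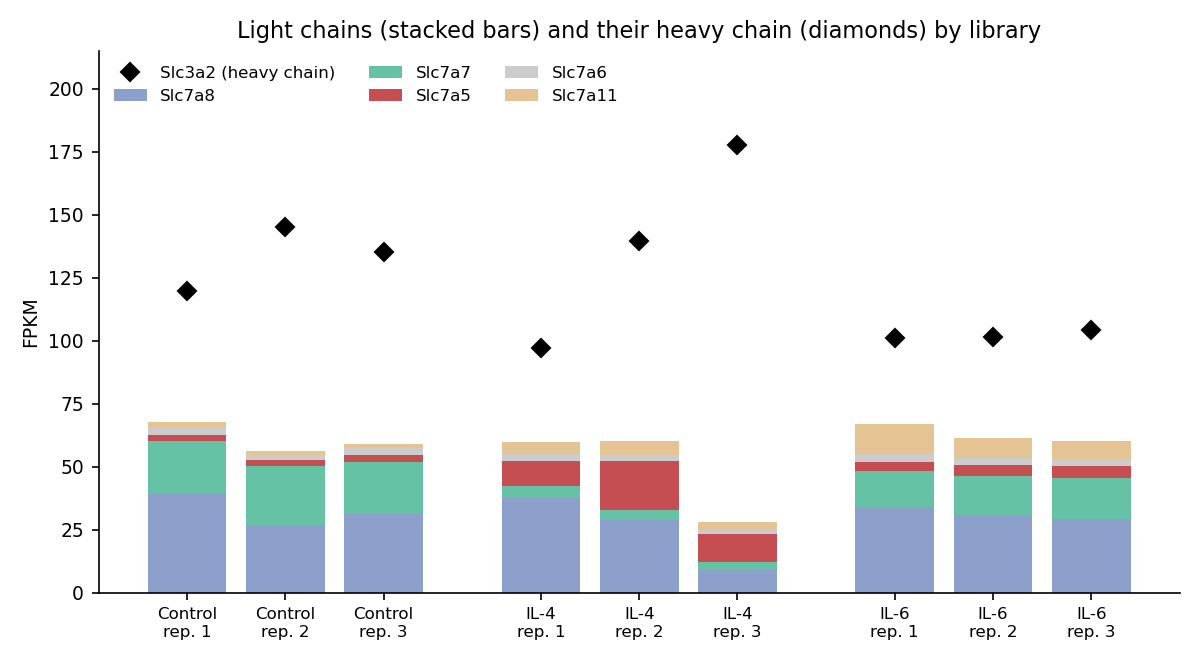
FPKM of the 5 light chains as stacked bars and of the heavy chain Slc3a2 as diamonds (vertical axis) in each of the 9 libraries. The Slc7a7 segment is thin and the Slc7a5 segment thick in the 3 IL-4 libraries, and the bar of IL-4 replicate 3 reaches only 28.0 FPKM.

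Slc7a11 itself responded to both cytokines. It read 2.39, 1.32 and 1.62 FPKM in control, 4.70, 5.45 and 2.99 FPKM with IL-4 and 12.0, 8.0 and 7.45 FPKM with IL-6. It rose with IL-4 (log2 fold change 1.25, limma adjusted p = 0.0185) and further with IL-6 (2.31, adjusted p = 0.00316). Both calls against control were lost with the term for the split in intestinal genes (adjusted p = 0.10 and 0.0944), while IL-6 libraries were called above IL-4 libraries with the term and without it (log2 fold change 1.13 and 1.06), but not after median-ratio rescaling. The call with IL-4 was lost without control replicate 2, control replicate 3 or IL-4 replicate 2 (adjusted p from 0.0618 to 0.0679). The call between IL-6 and IL-4 was lost without IL-4 replicate 3, IL-6 replicate 1 or IL-6 replicate 2.

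Other amino acid transporters were read from lists of 39 genes, of which 14 were tested. With IL-4, 4 of the 14 rose and 1 fell, beside 5.02% and 8.89% of all tested genes. With IL-6, 1 rose, beside 3.49% of all tested genes. Of 3 tested cationic carriers 2 rose with IL-4. Slc7a2 (CAT2), which brings arginine into alternatively activated Mϕs, read 0.521 to 0.752 FPKM in control, 73.1, 58.1 and 18.7 FPKM with IL-4 and 0.226 to 0.506 FPKM with IL-6 (log2 fold change 5.92 with IL-4). Slc7a1 (CAT1), the general arginine importer, rose from 1.38 to 7.10 FPKM in mean (log2 fold change 2.2, limma adjusted p = 0.00164). Of 10 tested carriers of neutral amino acids, Slc36a2, a relative of Slc36a1, rose from 0.283 to 12.8 FPKM in mean (log2 fold change 5.07). With 0.289 FPKM under IL-6, it reached the requirement for testing through the IL-4 libraries. Slc43a2 (LAT4), which lets large neutral amino acids out of the cell, fell from 158.4 to 26.4 FPKM (log2 fold change -2.68) and was at 148.2 FPKM with IL-6. Slc16a10, an aromatic amino acid carrier, was higher with IL-6 than with IL-4 (log2 fold change 1.41). Glutamate transporters were all under the mean required for testing (0 of 5 tested).

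Genes of the amino acid response moved with IL-4 in the direction of Slc7a5 and Slc1a5. Of 21 tested genes of a list of 26, 12 rose and 0 fell with IL-4, beside 5.02% of all tested genes called higher, with a median log2 fold change of 1.29 beside -0.20 over all genes. The largest rises were in Trib3, a pseudokinase induced by ATF4 (1.28, 1.88 and 1.6 FPKM in control against 11.4, 40.2 and 72.4 with IL-4, log2 fold change 4.27), Phgdh (3.74) and Psat1 (3.37) of serine synthesis, and Asns, the asparagine synthetase (3.17). Atf4 itself, named after its values were seen, read 74.9 to 97.7 FPKM in control and 139.8, 232.7 and 307.7 FPKM with IL-4 (log2 fold change 1.29, limma adjusted p = 0.00926), and it was not called with the term for the split in intestinal genes (0.66, adjusted p = 0.108). For all 12 genes that rose, as for Slc1a4, Slc1a5 and Slc7a5, IL-4 replicate 1 was the lowest of the IL-4 libraries. With the term for the split in intestinal genes 7 of the 12 were called, and leaving out 1 library gave from 10 to 16.

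With IL-6 the same list had 3 genes higher and 1 lower, beside 3.49% and 1.89% of all tested genes, with a median log2 fold change of 0.05. Ddit4, an inhibitor of mTORC1 (2.49), Nupr1, a stress-induced chromatin protein (2.16), and Cebpb, a transcription factor of inflammation (1.42), rose, and Atf3, a stress-induced transcription factor, fell (-1.06). None of the 3 rises was called with the term for the split, and 1, Ddit4, was called after median-ratio rescaling. Nupr1 and Cebpb were called in only 2 of the 9 fits that left out 1 library, those without IL-4 replicate 1 and without IL-4 replicate 3, and Ddit4 in all 9. Atf3 was not called without control replicate 3. Against IL-4, 12 genes were lower with IL-6 and 1, Ddit4, was higher, with a median log2 fold change of -1.62. Over all tested genes 6.82% were called lower and 13.6% higher in that comparison.

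Cytosolic tRNA synthetases, which load amino acids onto tRNA, were all tested (20 of 20). With IL-4, 9 rose and 0 fell, beside 5.02% of all tested genes called higher, with a median log2 fold change of 0.95 beside -0.20 over all genes. The largest values were in Rars1 (1.71), Yars1 (1.69), Cars1 (1.56) and Wars1 (1.37). The count was 4 with the term for the split, 12 after median-ratio rescaling and 6 without IL-4 replicate 2. With IL-6, limma called 0 in either direction, with a median of -0.24, and 11 were lower than with IL-4, beside 6.82% of all tested genes.

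Most genes that sense amino acids for the growth kinase mTORC1 were not called with IL-4. Of 36 tested, 0 rose and 6 fell, beside 8.89% of all tested genes called lower, and the median log2 fold change of the list was -0.29 beside -0.20 over all genes. After median-ratio rescaling 4 were called lower. The largest falls were in Sesn1, a member of the sestrin family to which the leucine sensor Sesn2 belongs (log2 fold change -2.24), Rragd, a Rag GTPase (-1.49), and Flcn (-1.25) and Fnip2 (-1.23), which act on the Rag GTPases. Fnip2 was called in only 1 of the 9 fits that left out 1 library, and with the term for the split 2 genes, Sesn1 and Rragd, were called. With IL-6 none of the 36 was called, and Sesn1 had a log2 fold change of -0.99 (limma adjusted p = 0.0435), just under the size required. Among 16 tested enzymes of amino acid metabolism, Gpt2, which makes alanine from glutamate and pyruvate, rose with IL-4 (1.65 to 1.97 FPKM in control against 13.6 to 17.7, log2 fold change 2.99), and Glul, the glutamine synthetase, fell (137.3 to 144.9 against 41.9 to 55.1 FPKM, log2 fold change -1.54). With IL-6 Glul read 147.5 to 200.1 FPKM and was not called against control.

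**Figure D5:**
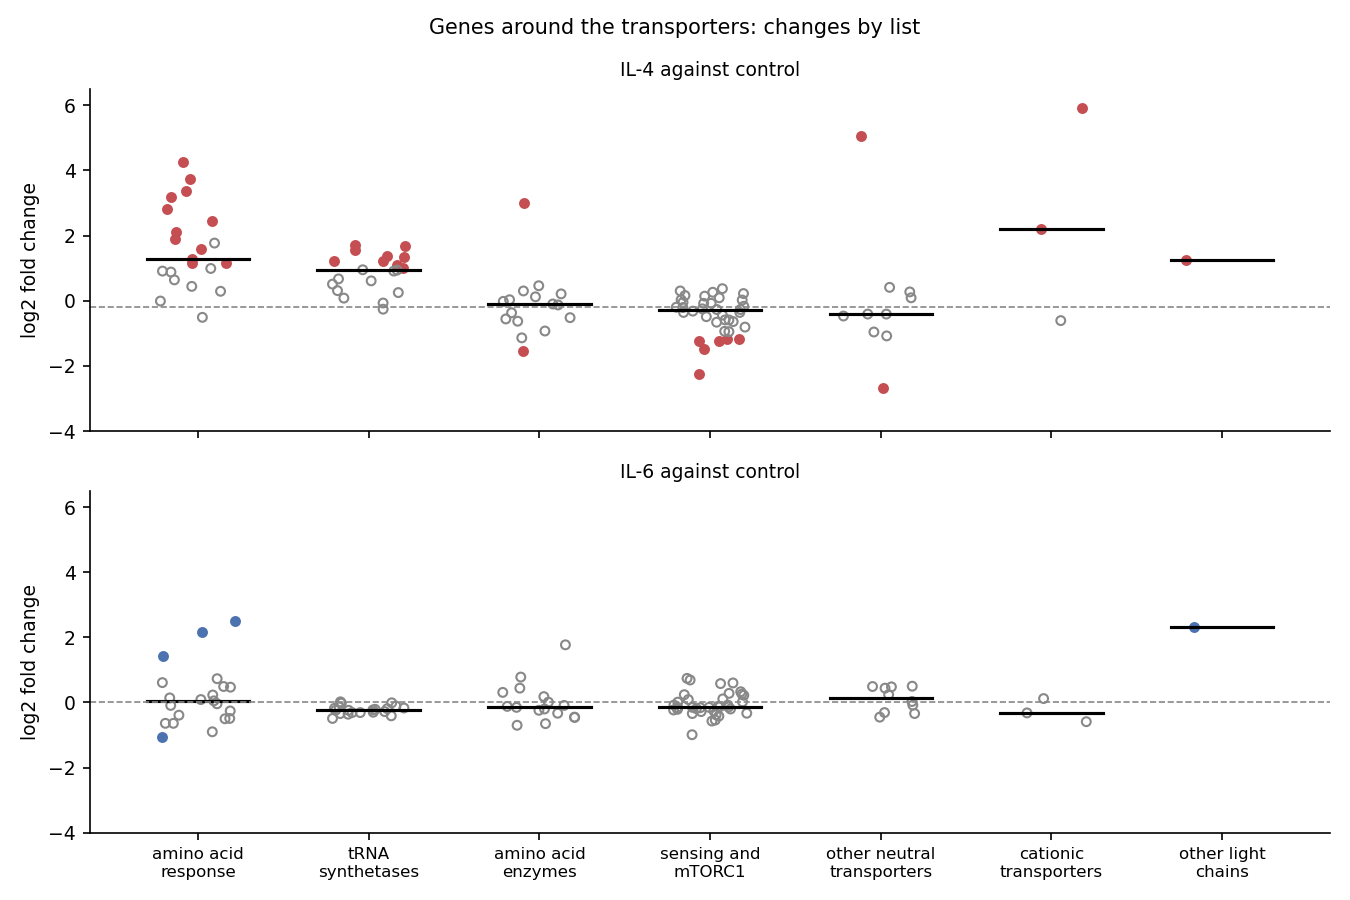
Fitted log2 fold change (vertical axis) of each tested gene in 7 lists around the transporters (horizontal axis), for IL-4 (upper panel) and IL-6 (lower panel) against the shared control libraries, with filled points for called genes, black bars for list medians and a dashed line for the median of all tested genes. The amino acid response bar lies at 1.29 with IL-4 and 0.05 with IL-6.

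Patterns over the 9 libraries were compared by Pearson r of log2(FPKM + 0.1), as a description in which points share groups and library differences. Among the transporters, Slc7a6 and Slc38a1 were most alike (r = 0.979), followed by Slc1a4 and Slc1a5 (r = 0.963). Slc1a5 and Slc7a7 ran most opposite (r = -0.957). The 2 transporters with the widest range of group means were Slc7a7 (2.54 on the log2 scale) and Slc7a5 (2.38). The tested genes most like Slc7a7 were Clasrp (r = 0.997), Gas6 (0.996), Rasa4 (0.996), Trpc4ap (0.996) and Ccl3 (0.994). Those most like Slc7a5 were Rai14 (0.993), Gpt2 (0.986), Ptpn2 (0.979), Slc18a2 (0.975) and Gpc1 (0.975).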

How the data were processed

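Poly(A) RNA of 9 Mϕ cultures was sequenced from stranded libraries. The authors deposited FPKM per gene, and their notes name STAR 2.4.2a, Cufflinks 2.2.1 and GRCm38. Symbols, positions and exonic lengths were taken from GENCODE M21 (GRCm38), which matched 50604 of 53379 identifiers with their version. FPKM of these matched whole fragments within 0.05, which gave the totals per library. Slc38a1 and Slc38a2 have another identifier version, and their M21 lengths did not give whole fragments within 0.05 in every library. No fragments were therefore recovered for them, and the lengths behind their FPKM may differ from those given.

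FPKM were transformed as log2(FPKM + 0.1), which understates changes of low genes. The 12824 genes with a mean of at least 0.5 FPKM entered limma 3.58.1 under R 4.3.3 (3 groups in 1 model, eBayes with trend and robust options, Benjamini-Hochberg adjustment over all tested genes). The study's own tests were not used here. Single genes also had a two-sided exact permutation test. Errors are SD over libraries, and folds are ratios of mean FPKM. Alternatives were a pseudocount of 1, no filter, median-ratio rescaling, 2 groups at a time, the replicate number as a block, a term for the 2 sets of libraries by intestinal genes (above or below 10% of the highest summed level), no minimum fold, limma voom on recovered fragments, leaving out each library and, added after seeing the data, centring within 20 bins of length.

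The transporters and the gene lists were chosen with earlier results of these data known. Named genes are the transporters, at most the 4 largest called changes of a list in each direction and comparison, Slc7a1, Slc7a2 and Slc7a11, the 5 genes most like the 2 transporters of widest range, and markers that moved with them. Glutamate transporters, stromal, erythroid, dendritic cell, T cell, B cell, eosinophil, monocyte, neutrophil and skeletal muscle lists were also read. Tables used pandas 2.3.3 and numpy 2.4.6 under Python 3.11.15, and plots matplotlib 3.10.9.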

Additional observations from a re-analysis of the deposited data

Results flagged for a closer look

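The responses of 5 transporters to IL-6 and to IL-4 differed by the direct limma test between the treated groups. As differences on the log2(FPKM + 0.1) scale, IL-6 minus IL-4, they were -2.07 for Slc1a4, -2.2 for Slc1a5, -1.65 for Slc7a5, 2.05 for Slc7a7 and 1.38 for Slc36a1. The first 4 were called with each of the 9 libraries left out in turn, and the difference of Slc36a1 in 5 of those 9 fits. Fits without a control library keep all the libraries compared, and the difference of Slc36a1 stayed at 1.38 in them. Among fits without a compared library, it was called only without IL-4 replicate 1 or IL-4 replicate 2. After centring within length bins the 5 differences were -2.27, -2.4, -1.76, 2.01 and 1.05, and all were called.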

How the results depend on the processing

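Over all alternatives, IL-4 against control called from 3 to 6 of the 10 transporters, IL-6 against control called 0, and IL-6 against IL-4 from 4 to 6. Of 534 values of single transporters under an alternative, 505 kept their direction and call, 8 gained a call, 8 lost one and 13, all of uncalled values, changed sign. The count of 505 is no measure of stability, as part of it was fixed in advance. Leaving out a library of the group not compared keeps the log2 fold change, as does dropping the minimum fold. Uncalled genes that stayed uncalled are also in it. With the set term the changes of sign were Slc3a2 (0.01 to -0.45) and Slc7a8 (-0.57 to 0.23) for IL-4 and Slc7a8 (-0.03 to 1.18) for IL-6, each against control. As given above, these set-term values rest on IL-4 replicate 1, and that for IL-6 also on IL-4 replicates 2 and 3. After centring by length Slc38a1 changed sign for IL-6 against control (0.30 to -0.01). Leaving out 1 library gave the other 9. For IL-4 against control Slc3a2 ran from -0.19 (without IL-4 replicate 3) to 0.25, also below 0 without control replicate 1 (-0.06) or IL-4 replicate 2 (-0.01), and Slc7a8 from -0.97 to 0.04 (without IL-4 replicate 3). For IL-6 against control Slc7a8 ran from -0.16 to 0.12 (without control replicate 1), also above 0 without IL-6 replicate 3 (0.02), Slc1a4 from -0.3 to 0.07 (without IL-6 replicate 1) and Slc7a6 from -0.02 (without control replicate 2) to 0.14. Between the cytokines Slc7a8 ran from -0.07 (without IL-4 replicate 3) to 0.94. The cause was not tested. The losses were Slc1a4 with a pseudocount of 1 in both comparisons with IL-4 and with the term for the set of libraries, and Slc36a1 between IL-6 and IL-4 in the 2-group fit (adjusted p = 0.0529) and without IL-4 replicate 3 or any IL-6 library. The gains were Slc38a2 and Slc36a1.

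Over all tested genes, 1784 were called for IL-4 against control and 690 for IL-6 against control, and fewer with the set term. With that term the first comparison rests on IL-4 replicate 1. The second is then reached only through the IL-4 libraries on both sides of the split. The part of this in the lower counts was not tested. Replicate numbers were shared between groups, and the column headers put an unexplained m before each number. Deviations of same-numbered libraries correlated between -0.415 and 0.521. These deviations also hold the library differences given above, so they cannot show whether a shared number marks the same mouse. Outside the block fit, the numbers were not taken as pairs. With the replicate number as a block, 5 transporters were called for IL-4 and 0 for IL-6, each against control, and 5 between the cytokines. With 3 libraries a group, the 95% interval of Slc1a4 with IL-6 against control ran from 0.487- to 1.83-fold. Intervals and fragment numbers cover counting and library spread only.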

Other observations

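Lists of other cells were read in the same limma fit, and their part in the transporter results was not tested. Over all tested genes, limma called 5.02% higher and 8.89% lower with IL-4, and 3.49% higher and 1.89% lower with IL-6. With IL-4, 2 of 3 monocyte markers, 6 of 8 neutrophil and granule markers, 1 of 3 eosinophil markers and 1 of 2 tested dendritic cell markers fell, and 1 of 2 tested T cell markers, Lck, rose. With the term for the split in intestinal genes the monocyte, dendritic cell and T cell counts were 0, the neutrophil and granule count was 3 and the eosinophil count 1, with 1 other eosinophil marker then called higher. With IL-6, 2 of 3 monocyte markers rose, among them Ccr2, at 3.18 to 4.50 FPKM in control and 38.5 to 44.5 FPKM with IL-6, and 1 of 3 eosinophil markers fell. With the term the monocyte count was 2 and the eosinophil count 0. No B cell marker (5 tested) or erythroid marker (2 tested) was called with either cytokine, and 0 of 5 stromal markers reached the mean required for testing. Of 6 tested intestinal epithelium genes, 2 were lower with IL-4 and 5 with IL-6 (1 and 0 with the term), and of 5 tested skeletal muscle genes 1, Tnni2, was lower with each (with the term, with IL-4 but not with IL-6). Over these 5 the median change on the log2 scale was 1.6 with IL-4 and 2.35 with IL-6, and the summed level of all 15 muscle genes followed the split, at 1.94 to 8.28 FPKM in the 4 libraries rich in intestinal genes and 8.80 to 15.2 FPKM in the other 5. Among the enzymes of amino acid metabolism, Kynu (log2 fold change 2.4) and Kmo (1.58) of tryptophan breakdown were higher with IL-6 than with IL-4. Kynu, at 0.386 FPKM in control and 0.260 with IL-4, reached the requirement for testing through the IL-6 libraries (1.55 FPKM).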
